A study of Mus musculus with 6 samples.

Results

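The BCL2 family decides whether a cell opens its outer mitochondrial membrane and dies by apoptosis. Anti-apoptotic members (Bcl2, Bcl2l1, Mcl1) hold back the pore-forming effectors (Bax, Bak1), and BH3-only members (Bid, Bad, Bcl2l11, Bbc3) release or activate those effectors. In the gut, Bid is known as the link from death receptors to mitochondria, because caspase-8 cleaves it after such a receptor is engaged. The genes described are the 10 of this family that were chosen by name: Bcl2, Bcl2l1, Mcl1, Bax, Bak1, Bid, Bad, Bcl2l11, Bbc3 and Bcl2l14. All 10 were found among the 30419 genes with values, through 45 of 51 listed transcripts, the other 6 having no value.

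Expression was measured by RNA sequencing of the whole colon in 6 male mice of 12 weeks, all labelled C57Bl/6J. Of these, 3 were wild type and 3 were Tnfrsf1a-/- (labelled R1ko), lacking tumour necrosis factor receptor 1, a death receptor. No treatment is given for either group. Whether the genotypes were littermates is not stated. No Cre or tissue restriction is named for the mutation, and the sources used here do not say which part of Tnfrsf1a was removed.

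Values are TPM, the abundance of a transcript relative to all others in its library, corrected for its length, so that genes can be compared with each other. The table gives no depth per library, so no counting interval can be set on a value. Transcripts without a gene held 27.4% of all TPM in wild-type replicate 2 and 1.86 to 7.23% in the other 5 libraries, which lowers every other value in that library. Values after median-of-ratios scaling, which puts the libraries on a common level, therefore stand beside those as deposited. The full-length Tnfrsf1a transcript, ENSMUST00000032491, measured 39.9 to 67.6 TPM in the wild-type libraries against 20.4 to 25.6 TPM in the knockouts. Its other forms were higher in the knockout means, ENSMUST00000125880 at 14.8 against 1.10 TPM and ENSMUST00000134803 at 4.22 against 2.33 TPM, so RNA of the gene was still measured in the knockouts. Markers of epithelium (Epcam, Vil1, Cdx2 and others) and of smooth muscle (Myh11, Des and others) were present in every library, with summed levels of 9001 to 12790 and 4459 to 6492 TPM.

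What the family shares is the BH3 core, a helix through which the members bind each other. The coding sequence of this core is shown for each of the 10 genes because it is the feature that defines the family. Sequences are 5′ to 3′ on the coding strand, from the GENCODE M21 transcripts (mm10). Capitals mark 18 bases that code for leucine, any 3 residues, glycine, alanine or serine, and aspartate, and the coordinates are those of the capitals.
Bcl2, chr1:106712584-106712601, minus strand: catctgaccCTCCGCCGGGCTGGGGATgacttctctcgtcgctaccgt
Bcl2l1, chr2:152829706-152829723, minus strand: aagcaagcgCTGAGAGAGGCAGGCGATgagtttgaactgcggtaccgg
Mcl1, chr3:95659436-95659453, plus strand: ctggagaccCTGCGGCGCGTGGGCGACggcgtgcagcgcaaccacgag
Bax, chr7:45466006-45466023, minus strand: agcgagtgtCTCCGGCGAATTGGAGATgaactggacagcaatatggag
Bak1, chr17:27022540-27022557, minus strand: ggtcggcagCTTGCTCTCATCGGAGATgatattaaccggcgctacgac
Bid, chr6:120897298-120897315, minus strand: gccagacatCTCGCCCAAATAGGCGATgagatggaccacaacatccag
Bad, chr19:6950792-6950809, plus strand: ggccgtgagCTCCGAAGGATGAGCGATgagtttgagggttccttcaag
Bcl2l11, chr2:128147150-128147167, plus strand: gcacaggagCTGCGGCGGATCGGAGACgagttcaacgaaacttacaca
Bbc3, chr7:16313773-16313790, plus strand: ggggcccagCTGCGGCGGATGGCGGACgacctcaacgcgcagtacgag
Bcl2l14, chr6:134430104-134430121, plus strand: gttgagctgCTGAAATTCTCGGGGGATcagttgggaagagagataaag

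The pattern occurred in the coding sequence of 10 of 10 members, once in each, and in 33.8% of 21769 genes with a complete coding transcript. A match is a description of these letters and does not show binding.

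The 10 genes spanned levels from 2.71 TPM for Bcl2 to 183 TPM for Mcl1 as means over the 6 libraries. Mcl1, a short-lived anti-apoptotic protein, was the most abundant in every library. Below it came the effector genes Bak1 at 87.9 TPM and Bax at 63.2 TPM. Bcl2l14 followed at 55.6 TPM and Bad at 50.6 TPM. Bcl2l1, which encodes BCL-XL, had 27.0 TPM and Bbc3, which encodes PUMA, 15.1 TPM. Bid had 10.3 TPM and Bcl2l11, which encodes BIM, 6.89 TPM. Bcl2, the founder of the family, was lowest in every library. In 6 of the 9 steps of this order the upper gene was above the next in all 6 libraries. The exceptions were Bax over Bcl2l14, Bcl2l14 over Bad and Bbc3 over Bid, each of which held in 5 of 6 libraries, so these neighbours did not differ beyond their spread. Most of the Bak1 sum was assigned to a transcript with no entry in the GENCODE M21 annotation, described below.

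**Figure D1:**
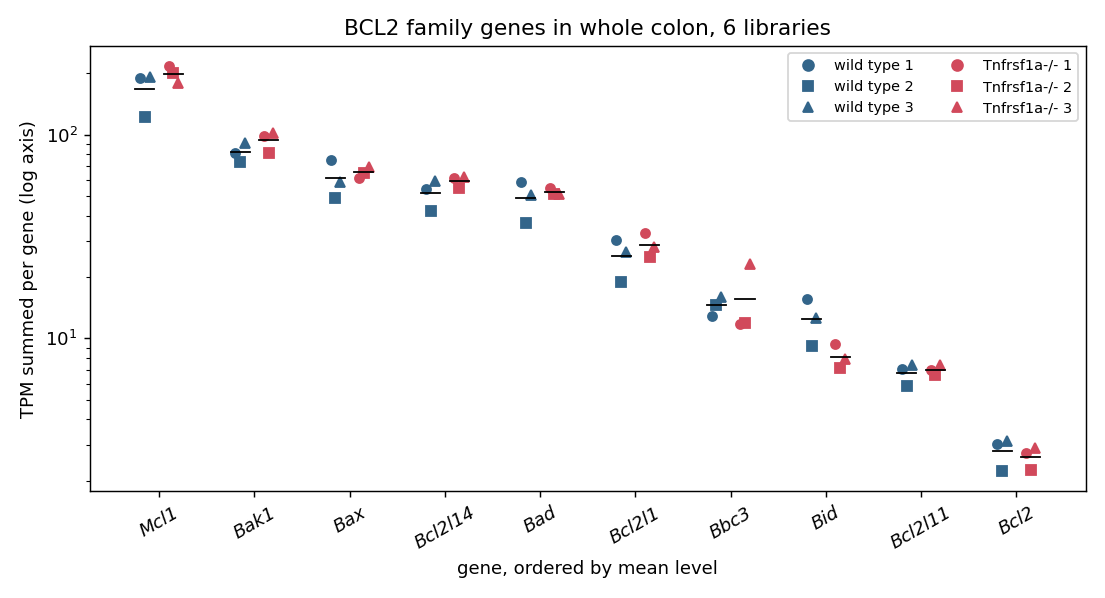
TPM summed per gene (log axis) for the 10 BCL2 family genes in each of the 6 libraries, with wild type in blue, Tnfrsf1a-/- in red and group means as black lines. Mcl1 is highest and Bcl2 lowest in every library, and Bid is the only gene whose knockout mean (8.11 TPM) lies below all 3 wild-type values. The knockout means of Mcl1 (199 TPM), Bak1 (93.8 TPM) and Bcl2l14 (59.4 TPM) lie above all 3.

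By role, the 3 anti-apoptotic genes together held 38.4 to 45.3% of the TPM of the 10 genes across the 6 libraries, most of it from Mcl1. The 2 effectors held 28.8 to 32.7% and the 4 BH3-only genes 14.9 to 17.9%. Bcl2l14 held 10.2 to 11.7%. These shares do not depend on how a library is scaled, and each of the 4 overlapped between the genotypes. For the BH3-only genes the overlap was narrow, at 17.87, 17.77 and 16.69% in wild type and 14.91, 15.23 and 16.78% in knockout. Among these 4 genes, the shares of Bad, Bbc3 and Bcl2l11 each overlapped between the genotypes. Those of Bid did not, at 2.95, 2.44 and 2.43% in wild type and 1.67, 1.41 and 1.48% in knockout. A share also moves when another gene of the sum moves, and Mcl1 alone held 32.7 to 39.6% of it.

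The comparison of knockout with wild type asks whether the colon without TNFR1 carries another balance of these genes. No member passed the threshold, an adjusted p (Benjamini-Hochberg, limma) of 0.05 over 14284 genes, where 0.266% of all genes did, 0.175% as lower and 0.091% as higher in knockout. After median-of-ratios scaling 0 members passed, against 0.042% of all genes, and without wild-type replicate 2 also 0, against 0.133%. At an unadjusted p below 0.05 there was 1 member, Bid, against 3.7% of all genes, and after scaling there were 2, Bid and Bcl2l14, against 11.4%. In the test as deposited 8 members had a positive log2 fold change and 2 a negative one, with a median of 0.12 beside 0.03 for all genes. When TPM were recomputed over transcripts with a gene, 5 were positive and 5 negative, and the medians were −0.0038 and −0.10. Without wild-type replicate 2 there were likewise 5 and 5, with medians of −0.0097 and −0.13. The sign thus turned for Bax, Bcl2l11 and Bbc3 in the first case and for Bax, Bad and Bcl2l11 in the second. Bid was lower under each scaling tried. In bulk tissue, fewer cells of a type and less RNA per cell cannot be told apart.

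**Figure D2:**
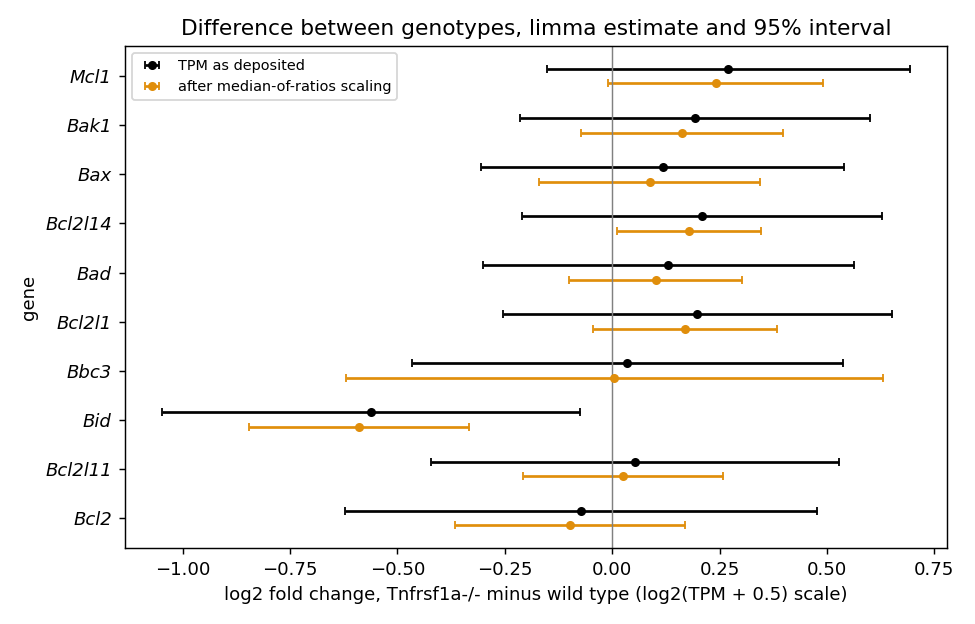
Log2 fold change (knockout minus wild type) of the 10 genes with its 95% interval from limma, for TPM as deposited (black) and after median-of-ratios scaling (orange). Bid lies at −0.56 and −0.59 with intervals below 0, and the other 9 intervals for TPM as deposited include 0. After scaling, the interval of Bcl2l14, 0.012 to 0.35, lies above 0, and those of the remaining genes include 0.

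Among the anti-apoptotic genes, Mcl1 measured 189, 122 and 192 TPM in the wild-type libraries against 217, 200.3 and 179.8 TPM in the knockouts. The groups overlapped, and wild-type replicate 2 was the low value. The log2 fold change was 0.27 ± 0.21 (SE), with a 95% interval of −0.15 to 0.69 (limma adjusted p = 1, rounded from 0.9999). After scaling it was 0.24, with an interval of −0.0092 to 0.49 (limma adjusted p = 0.452).

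Bcl2l1 had 30.5, 18.9 and 26.4 TPM in the wild-type libraries against 33.0, 25.1 and 28.0 TPM in the knockouts, so the groups overlapped. Its log2 fold change was 0.20 with an interval of −0.26 to 0.65. Bcl2 was at a low level, with 3.02, 2.23 and 3.14 TPM in the wild-type libraries against 2.72, 2.26 and 2.89 TPM in the knockouts, with overlap. Its log2 fold change was −0.07 with an interval of −0.62 to 0.48, and after scaling −0.10 with an interval of −0.37 to 0.17. As a share of the 10-gene sum, Bcl2 had 0.573, 0.596 and 0.607% in wild type and 0.488, 0.446 and 0.541% in knockout. All knockout shares thus lay below all wild-type shares, which was not tested, and no background over all genes was computed for such shares. After scaling, the TPM of Bcl2 overlapped, at 2.675, 2.84 and 2.857 in the wild-type libraries against 2.561, 2.46 and 2.706 in the knockouts. The sum also moves with Mcl1, whose mean share was 35.2% in wild type and 37.4% in knockout.

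Of the effectors, which form the pore in the outer membrane, Bax had 75.2, 49.1 and 58.8 TPM in the wild-type libraries against 61.6, 65.1 and 69.4 TPM in the knockouts. The knockout values fell inside the wild-type range. The log2 fold change of Bax was 0.12, with an interval of −0.31 to 0.54. Bak1 had 81.4, 73.1 and 91.3 TPM in the wild-type libraries against 98.7, 81.3 and 101.4 TPM in the knockouts, with overlap. Its log2 fold change was 0.19, with an interval of −0.21 to 0.60.

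The ratio of Bax to Bcl2, often read as a gauge of apoptotic priming, was 24.9, 22.0 and 18.8 in wild type and 22.6, 28.8 and 24.1 in knockout. The log2 ratio was 4.44 ± 0.20 and 4.65 ± 0.18 (SD, n = 3; two-sided exact permutation p = 0.4). The ratio of the BH3-only gene Bcl2l11 to Mcl1, whose protein BIM is known to bind, was 0.0373, 0.0478 and 0.0386 in wild type and 0.0324, 0.0331 and 0.0412 in knockout. Its log2 value was −4.61 ± 0.19 and −4.82 ± 0.19 (SD, n = 3; exact permutation p = 0.3). Both ratios overlapped between the genotypes. With 3 mice against 3 an exact permutation test cannot give a p below 0.1.

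Bid was the member that differed most. It encodes the BH3-only protein that joins death receptors to mitochondria and lies on chromosome 6, 120891930 to 120916853, minus strand. It measured 15.6, 9.15 and 12.5 TPM in the wild-type libraries against 9.33, 7.13 and 7.88 TPM in the knockouts. All 3 knockout values lay below wild-type replicates 1 and 3, and the overlap came from wild-type replicate 2, just under knockout replicate 1. The means were 12.4 ± 3.22 and 8.11 ± 1.12 TPM (SD, n = 3). The log2 fold change was −0.56 ± 0.24 (SE), with a 95% interval of −1.05 to −0.08 (limma, unadjusted p = 0.0251, adjusted p = 1, rounded from 0.9999).

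After scaling, Bid had 13.8, 11.6 and 11.4 TPM in the wild-type libraries against 8.78, 7.77 and 7.40 TPM in the knockouts, and the groups no longer overlapped. The log2 fold change was then −0.59 ± 0.11 (SE), with an interval of −0.85 to −0.33 (limma, unadjusted p = 0.000916, adjusted p = 0.287). By p it ranked 41 of 14284 genes, and it did not pass the threshold. Without wild-type replicate 2 the log2 fold change was −0.76 (limma adjusted p = 0.391). Across the alternatives tried, the adjusted p of Bid ran from 0.196 to 1. As a share of the 10-gene sum, Bid held 2.95, 2.44 and 2.43% in wild type and 1.67, 1.41 and 1.48% in knockout.

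After scaling, groups without overlap were found for 2 of the 10 members, Bid as lower and Bcl2l14 as higher, where 18.5% of all tested genes had such groups, 9.21% as lower and 9.3% as higher. As deposited, they were found for 0 of the 10, beside 4.98% of all genes, 1.81% as lower and 3.17% as higher. The members' counts are near these backgrounds. Bid lies 4.43 Mb and Bcl2l14 9.03 Mb from Tnfrsf1a on the same chromosome. For both genes, a difference carried by linked sequence around the targeted locus and one due to the loss of the receptor cannot be told apart. The other 8 members lie on other chromosomes.

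**Figure D3:**
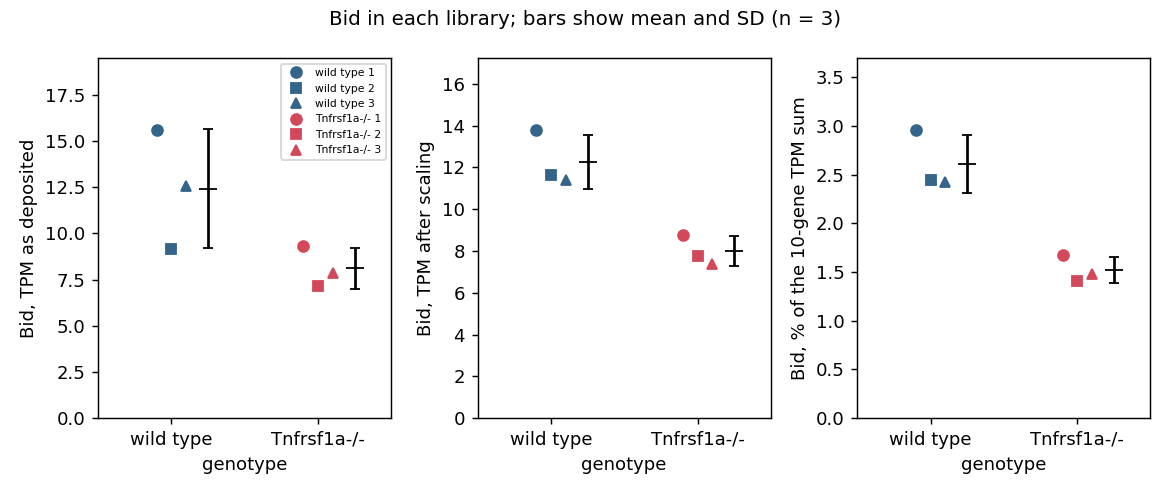
Bid in each library as TPM as deposited (left), as TPM after median-of-ratios scaling (middle) and as a percentage of the TPM of the 10 genes (right), with mean and SD beside the points (n = 3). As deposited, wild-type replicate 2 (9.15 TPM) sits under knockout replicate 1 (9.33 TPM), and after scaling the 3 knockout libraries lie below the 3 wild-type libraries.

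The other BH3-only genes gave no such separation. Bad, a sensor of growth factor and nutrient signals, had 58.7, 36.9 and 50.4 TPM in the wild-type libraries against 54.9, 51.4 and 51.0 TPM in the knockouts. The knockout values lay within the wild-type range, and the interval of the log2 fold change was −0.30 to 0.56. Bcl2l11 had 7.06, 5.85 and 7.40 TPM in the wild-type libraries against 7.02, 6.63 and 7.40 TPM in the knockouts, also within the wild-type range. Its log2 fold change after scaling was 0.03, with an interval of −0.21 to 0.26.

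Bbc3, a target of p53, had 12.9, 14.6 and 16.0 TPM in the wild-type libraries against 11.8, 11.9 and 23.1 TPM in the knockouts. Knockout replicate 3 was the highest of the 6 libraries and the other 2 knockout libraries were the lowest. Its SD within groups on the log2 scale, 0.40, was the largest of the 10 members, beside a median of 0.25 over all tested genes. After scaling these values were 0.42 and 0.14. The interval of the log2 fold change, −0.47 to 0.54, included 0, and without knockout replicate 3 the log2 fold change was −0.28.

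Bcl2l14, which encodes the divergent family member BCL-G, had 54.0, 42.0 and 59.2 TPM in the wild-type libraries against 61.3, 54.7 and 62.2 TPM in the knockouts. The groups overlapped as deposited. After scaling they did not, at 47.8, 53.5 and 53.9 TPM against 57.7, 59.6 and 58.3 TPM. The log2 fold change was 0.21 as deposited, with an interval of −0.21 to 0.63. After scaling it was 0.18, with an interval of 0.012 to 0.35 (limma, unadjusted p = 0.0391, adjusted p = 0.43).

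Most Bcl2l14 RNA was assigned to a transcript with its own start. ENSMUST00000111960, which begins at 134414428 on chromosome 6 (plus strand), held 77.5 to 82.2% of the gene's TPM in the 6 libraries. ENSMUST00000163589, which begins at 134398640, held 14.1 to 18.5%, and ENSMUST00000032321, which begins at 134396318, held 1.70 to 3.16%. All 3 code for the same length of 984 bases, so they differ in their starts and untranslated ends. No share of these 3 separated the genotypes. The 120 bases before the downstream start (RefSeq, GRCm38.p6, chr6:134414308-134414427, plus strand) are shown because this start carries most of the signal. They hold 48.3% G and C, beside a median of 54.2% before 32851 starts in that table, and no TATAAA on either strand, which 6.34% of those starts have.
Bcl2l14, downstream start: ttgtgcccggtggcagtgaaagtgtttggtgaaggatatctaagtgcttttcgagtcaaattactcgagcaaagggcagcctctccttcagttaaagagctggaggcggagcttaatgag

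Transcripts were also tested one by one. Of the 45 member transcripts with values, 23 reached a mean of 1 TPM and were tested. None passed the threshold over 31056 transcripts (limma, Benjamini-Hochberg), where 0.0419% of all transcripts did, and after scaling none passed either, where 0.0451% did. At an unadjusted p below 0.05 there was 1, against 5.02% of all transcripts. Of the 23, 15 had a positive and 8 a negative log2 fold change. The 22 transcripts under 1 TPM reached at most 1.68 TPM in any library.

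The smallest adjusted p, 0.559, belonged to a short form of Mcl1, ENSMUST00000178686. It was listed at 0, 0 and 7.45 TPM in the wild-type libraries and had 15.9, 24.1 and 7.70 TPM in the knockouts. All 3 knockout libraries were above all 3 wild-type libraries, though knockout replicate 3 exceeded wild-type replicate 3 by only a little. Groups without overlap in this direction were found for 4.23% of all tested transcripts. Without wild-type replicate 3 the transcript passed (limma adjusted p = 0.0018). Both wild-type values left were then 0, so the size and the p of that test rest on the pseudocount. Across the alternatives its adjusted p ran from 0.0018 to 1. An exact 0 in such a table can be a failed estimate, so no fold is given.

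The short form lacks 138 bases inside the first exon of the full form, ENSMUST00000037947 (chr3:95658909-95659046, plus strand). This removes 46 of 331 codons near the start of the protein and leaves the BH3 core in place. All 858 bases of the short form are also among the 3418 bases of the full form, so the junction is the only sequence that the short form has and the full form lacks. The missing part holds 85.5% G and C and is flanked by a 6-base repeat. In 0 of the 7 placements that give the same short form does it begin with GT and end with AG, the usual ends of an intron, and in 0 with GC and AG. The 20 bases on each side of the junction are shown because no other sequence sets the short form apart, with capitals for the bases that follow the missing part. The second line gives the full form at the same place, starting from the same base.
Mcl1, short form: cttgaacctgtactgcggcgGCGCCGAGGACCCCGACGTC
Mcl1, full form: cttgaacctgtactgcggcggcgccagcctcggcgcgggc

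The full form had 189, 122 and 184 TPM in the wild-type libraries against 201, 176 and 172 TPM in the knockouts, with overlap (log2 fold change 0.17, limma adjusted p = 1). The short form therefore held 0, 0 and 3.89% of Mcl1 TPM in the wild-type libraries against 7.32, 12.0 and 4.29% in knockout (exact permutation p = 0.1, the smallest possible, adjusted p = 0.57 over 19 shares).

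Bcl2l1 had 9 transcripts with values. Its 2 main forms, ENSMUST00000007803 and ENSMUST00000109820, both code for 233 codons and start in different first exons, at 152831728 and 152830666 on chromosome 2 (minus strand). The first had 18.1, 13.0 and 16.7 TPM in the wild-type libraries against 14.7, 15.6 and 16.7 TPM in the knockouts. The second had 5.14, 1.79 and 4.49 TPM in the wild-type libraries against 7.88, 5.12 and 5.51 TPM in the knockouts, a log2 fold change of 0.71 ± 0.35 (SE; limma, unadjusted p = 0.0687, adjusted p = 0.996). Its share of Bcl2l1 was 16.9, 9.47 and 17.0% in wild type and 23.9, 20.4 and 19.7% in knockout, without overlap (exact permutation p = 0.1, adjusted p = 0.57). In each group the first form was the more abundant in all 3 libraries. A transcript of 686 bases, ENSMUST00000134357, ranged from 0 to 5.36 TPM among the knockout libraries alone.

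In Bak1, 60.6 to 66.3% of TPM was assigned to ENSMUST00000133448, which has no entry in the GENCODE M21 annotation used here, so its structure is not given. It had 49.3, 45.5 and 55.5 TPM in the wild-type libraries against 65.4, 50.2 and 65.6 TPM in the knockouts. The annotated coding form, ENSMUST00000078691, ranged from 18.1 to 25.2 TPM over the 6 libraries. When only transcripts in GENCODE M21 were summed, an alternative chosen after seeing the data, the log2 fold change of Bak1 was 0.07 in place of 0.19. The other tested forms of Bak1 averaged 22.0 and 9.67 TPM over the libraries. With the TPM of ENSMUST00000133448 left out of the sum, Bak1 would stand below Bax, Bcl2l14 and Bad in the order of levels. Reads were not assigned anew without this transcript, so the level of Bak1 in that case was not tested.

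Bad was spread over 4 tested transcripts. ENSMUST00000113423, with 162 codons, held 54.3 to 70.6% of its TPM, and the share was lowest in wild-type replicate 2. Bbc3 had a main form, ENSMUST00000002152, at 55.7 to 62.4% and a second form, ENSMUST00000136781, at 31.0 to 43.1%. The annotated part of the second form ends at 16313738, before the BH3 core. Bcl2l11 was carried mainly by ENSMUST00000110341, whose 588 coding bases are the longest of its forms, at 5.30, 3.47 and 4.79 TPM in the wild-type libraries against 5.08, 4.30 and 4.68 TPM in the knockouts. Its other 7 transcripts each had a mean under 1 TPM. Bid was carried by ENSMUST00000004560, at 14.03, 8.14 and 11.7 TPM in the wild-type libraries against 7.86, 6.78 and 7.88 TPM in the knockouts, without overlap as deposited (limma log2 fold change −0.53, adjusted p = 0.993). Groups without overlap in this direction were found for 3.96% of all tested transcripts. Bax and Bcl2 likewise had 1 tested transcript.

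**Figure D4:**
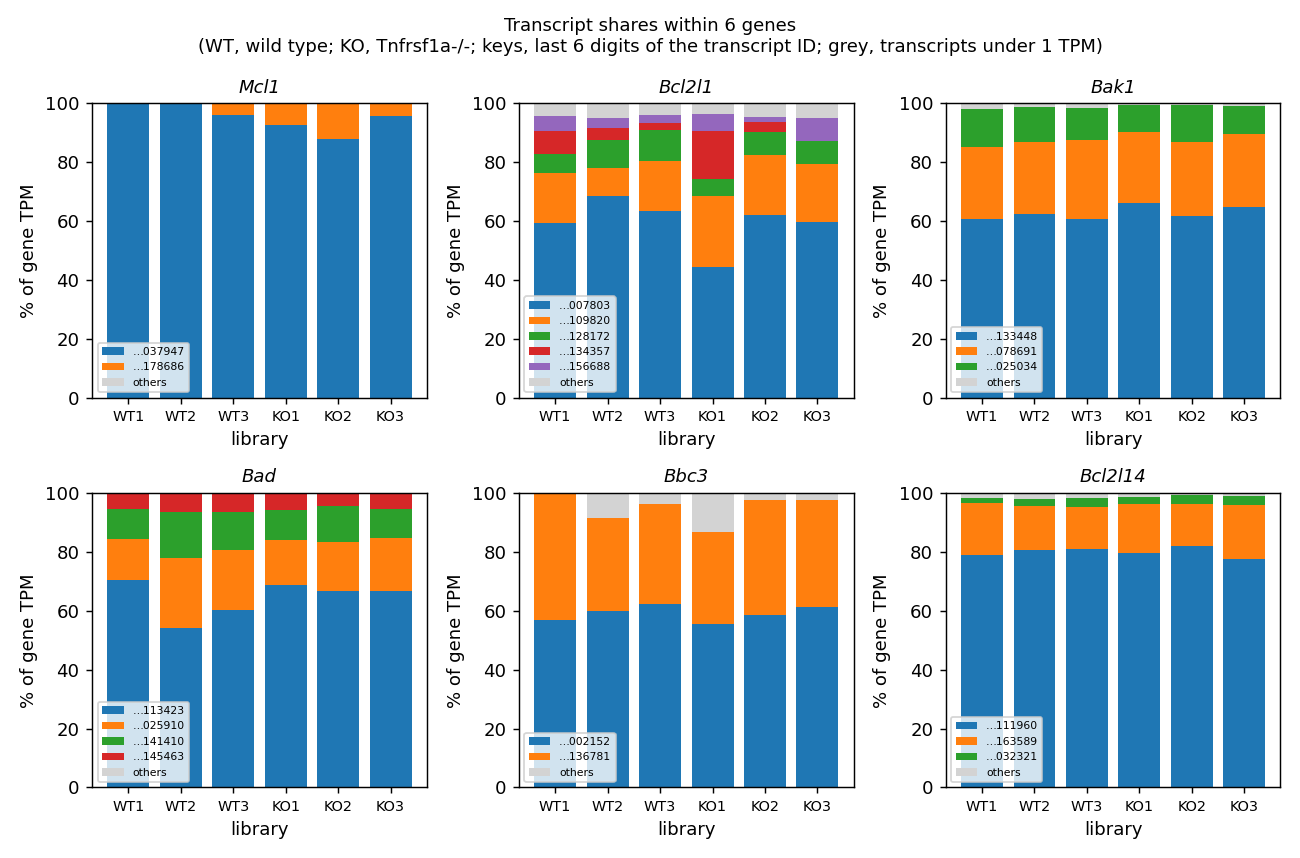
Percentage of each gene's TPM in its transcripts of at least 1 TPM, stacked for each library (WT wild type, KO Tnfrsf1a-/-), for the 6 genes with more than 1 such transcript. The short Mcl1 form (orange) is at 0, 0 and 3.89% in wild type and 4.29 to 12.0% in knockout, and the Bcl2l14 shares stay within 77.5 to 82.2% for the main form.

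In all, 19 transcript shares of 6 genes were compared, and 3 reached the smallest possible p: both Mcl1 forms, which are complements, and ENSMUST00000109820 of Bcl2l1. With 3 against 3 this p is 0.1 and means only groups without overlap. How many shares of other genes reach it was not computed, so the 3 cannot be read as many or few. None passed after adjustment (smallest adjusted p 0.57, exact permutation tests).

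The rest of the BCL2 family was read from a list of 13 other genes, of which 9 reached a mean of 1 TPM. None passed the threshold (limma, Benjamini-Hochberg), 6 were positive and 3 negative, and their median log2 fold change was 0.10 beside 0.03 for all genes. Bcl2l2, an anti-apoptotic relative of BCL-XL, had 38.0 ± 4.47 TPM in the wild-type libraries against 40.6 ± 3.02 TPM in the knockouts (SD, n = 3). Bok, an effector-like member, had 41.2 ± 7.80 and 43.7 ± 2.47 TPM. Pmaip1, which encodes the BH3-only protein NOXA, had 30.6 ± 6.71 and 32.9 ± 1.002 TPM. All these were above Bcl2, Bcl2l11 and Bid.

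Bik and Bmf, both BH3-only genes, had 10.8 ± 1.72 and 9.98 ± 1.71 TPM in the wild-type libraries against 11.8 ± 1.36 and 9.43 ± 0.21 TPM in the knockouts. Bcl2l12 and Bcl2l13 had 5.85 ± 1.90 and 10.8 ± 2.14 TPM in the wild-type libraries against 6.27 ± 0.84 and 10.96 ± 1.32 TPM in the knockouts. Bcl2a1b and Bcl2a1d, copies of an anti-apoptotic gene of blood cells, had the smallest p of this list. Bcl2a1b had 4.71, 3.90 and 5.68 TPM in the wild-type libraries against 3.45, 2.59 and 4.10 TPM in the knockouts, a log2 fold change of −0.45 (limma adjusted p = 1, 0.359 after scaling). Bcl2a1d had 2.28, 1.78 and 2.55 TPM in the wild-type libraries against 1.53, 0.939 and 1.98 TPM in the knockouts, a log2 fold change of −0.47 (limma adjusted p = 1, 0.423 after scaling). The copies are near-identical, so their separate values are uncertain.

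Among markers of blood cells, the 3 tested for T cells had 1 positive and 2 negative log2 fold changes (median −0.39). The 5 for macrophages had 2 positive and 3 negative (median −0.03), and the 3 tested for neutrophils were all positive (median 1.09). B cell markers had differences of the same sign as Bcl2a1b and Bcl2a1d. All 7 (Ms4a1, Cd79a and Pax5 among them) were lower on the log2 scale in the knockout means (median −0.90), and none passed the threshold (limma). At an unadjusted p below 0.05 there were 6 of them, where 3.7% of all genes were, and after scaling 3, where 11.4% were. Their summed level was 26.1, 26.6 and 37.5 TPM in the wild-type libraries against 11.4, 7.17 and 31.1 TPM in the knockouts. Knockout replicate 3 thus lay inside the wild-type range, and the lower means came from the other knockout libraries. No marker was at 0 in every library. Their part in the values of Bcl2a1b, Bcl2a1d, Bcl2 and Bid, which blood cells also express, was not tested. The 3 hair follicle genes summed to 9.83 to 66.6 TPM in the wild-type libraries against 3.97 to 10.1 TPM in the knockouts, and all 3 passed as lower. The 4 adipocyte genes summed to 49.9 to 142 TPM and 172 to 238 TPM, with Cfd passing as higher. The 5 genes of the neutrophil list summed to 152 to 211 TPM in wild type and 217 to 241 TPM in knockout. Most of this came from Ly6g, so the sum mainly follows that gene and does not measure neutrophils. Of these genes S100a9 passed as higher, at 8.52 ± 3.11 TPM in wild type and 26.05 ± 11.2 in knockout (SD, n = 3), and S100a8 did not pass (limma adjusted p = 0.0626). In the same order, Ly6g was at 165 ± 24.9 and 179.5 ± 6.21 TPM, Cxcr2 at 1.14 ± 0.23 and 0.761 ± 0.25 TPM, and Csf3r at 0.289 ± 0.027 and 0.348 ± 0.070 TPM. Cxcr2 and Csf3r averaged under 1 TPM over the libraries and were not tested. The 4 skeletal muscle genes summed to 108 to 1513 TPM in wild type and 588 to 1455 TPM in knockout, with a median log2 difference of 1.31 and none past the threshold, and without wild-type replicate 2 the median was 0.32. After scaling none of these passed, and when wild-type replicate 2 was left out 1 hair follicle gene did. Their part in the members' values was not tested. The 8 epithelial markers were all higher in the knockout means (median log2 difference 0.16), and none passed. When wild-type replicate 2 was left out, 5 of the 8 were higher, 3 were lower and the median was 0.02.

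Downstream of the family, the apoptosome, caspases and mitochondrial factors gave 0 of 15 genes past the threshold, 10 positive and 5 negative, with a median of 0.07. Vdac3, a channel of the outer mitochondrial membrane, had 227 ± 45.9 TPM in the wild-type libraries against 253 ± 8.49 TPM in the knockouts (SD, n = 3). Among inhibitor of apoptosis proteins 0 of 5 passed, with a median of −0.0076. Birc5, which encodes survivin, had 28.0 ± 5.62 and 31.0 ± 5.96 TPM, and Xiap, an inhibitor of caspases, 25.2 ± 2.96 and 23.9 ± 0.98 TPM.

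Upstream of Bid, 0 of 6 genes of death receptor input passed, with 4 positive and 2 negative and a median of 0.08. Casp8, the protease that cleaves BID, had 53.7 ± 10.4 TPM in the wild-type libraries against 59.4 ± 5.08 TPM in the knockouts (SD, n = 3), and the adaptor kinase Ripk1 19.3 ± 3.08 and 20.8 ± 1.75 TPM. Among regulators of BCL2 proteins 0 of 19 passed, with 14 positive and 5 negative and a median of 0.05. The kinase gene Pim1 had 12.3 ± 1.251 and 9.81 ± 3.69 TPM, and Ddit3, which encodes the stress factor CHOP, 36.3 ± 6.73 and 29.3 ± 8.32 TPM. Of 10 p53 target genes 9 were tested and 0 passed, with a median of 0.06. Phlda3 had 19.04 ± 8.13 and 22.2 ± 4.64 TPM, and Sesn2 4.47 ± 1.19 and 5.31 ± 0.83 TPM. Without wild-type replicate 2 the 6 list medians ran from −0.17 to −0.02, beside −0.13 for all genes.

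**Figure D5:**
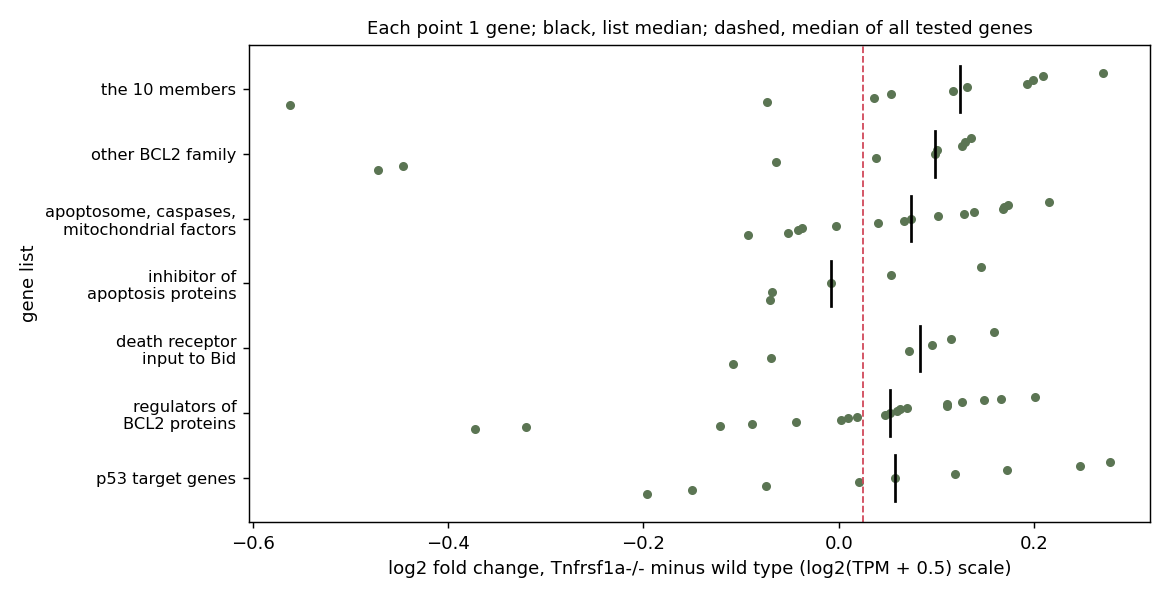
Log2 fold change (knockout minus wild type) of each tested gene in the 10 members and 6 related lists, with list medians in black and the median of all 14284 tested genes (0.03) as a dashed line. Bid at −0.56, Bcl2a1d at −0.47 and Bcl2a1b at −0.45 are the lowest points, and no gene shown passed the threshold.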

How the data were processed

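Whole-colon RNA of 3 wild-type and 3 Tnfrsf1a-/- mice was sequenced. Per the submitters' processing notes, the authors quantified transcripts with kallisto 0.43.1 (mm10) and tested with sleuth, whose results were not used here. The authors deposited TPM, a length-normalised signal per transcript. Of 132639 lines, 1433 repeated a transcript and were taken once. TPM were summed per gene. Genes and transcripts averaging 1 TPM or more across the libraries were tested as log2(TPM + 0.5) with limma 3.58.1 in R 4.3.3 (variance trend, Benjamini-Hochberg over all, threshold 0.05). The added 0.5 makes fold changes of low genes too small. For shares and ratios, an exact two-sided permutation test was used. Positions and sequences came from GENCODE M21 and RefSeq (GRCm38.p6). The depth of each library is not in the table. The labels do not say how mice were matched, so replicate numbers were not used as pairs. Within the named genes rule, all 10 members, their transcripts of at least 1 TPM, other family genes of at least 1 TPM and the 2 genes of smallest p in each list were named. A gene that this rule would name is not reported here. Members and lists were chosen with earlier results of these data known. The model was also run on simulated data with independent noise for each gene. That simulation held no shift of a whole library such as that of wild-type replicate 2, and no result here rests on it. Protein sequences were not used here, so the BH3 core is shown as coding DNA. That choice, the Mcl1 junction, the Bcl2l14 start and the shares of the 10-gene sum were chosen after values were seen and carry no test. The alternatives were other pseudocounts, filters, scalings and variance models, a replicate block, an adjusted p of 0.1 and each library left out.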

Additional observations from a re-analysis of the deposited data

How the results depend on the processing

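No member gene passed the threshold under any alternative tried, and 1 member transcript passed in 1 of them, without wild-type replicate 3. Over all genes, 13 were called higher and 25 lower. These counts were 1 and 1 with no filter, 75 and 67 at a mean of at least 5 TPM, 5 and 1 after median-of-ratios scaling, and 5 and 2 after quantile normalization. They were 3 and 1 with TPM over transcripts with a gene, 35 and 48 with robust variance, and 21 and 33 at an adjusted p of 0.1. With a pseudocount of 0.1, 16 were lower. Leaving out 1 library gave 4 (without wild-type replicate 2) to 199 higher (without wild-type replicate 1), and 15 (without wild-type replicate 2) to 140 lower (without knockout replicate 3).

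Of transcripts, 13 were called, and 7 with a pseudocount of 0.1, 1 with no filter, 23 at a mean of at least 5 TPM, 28 at an adjusted p of 0.1 and 1 to 57 with 1 library left out. Among member transcripts that range was 0 to 1.

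With the replicate number as a block, 13 genes were higher and 58 lower, and 1 transcript was called. Same-numbered libraries correlated at 0.0521, 0.132 and 0.184 in their deviations from the group means, and differently numbered ones at −0.2445 to 0.0981. Each library except knockout replicate 1 correlated best with its own number, which is a hint from the data and not from the design. As 1 of the 3 values is under 0.1, the numbers were not taken as pairs. The block called no member.

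Signs that turned belong to small differences. With TPM over transcripts with a gene, log2 fold changes became −0.01103 for Bax (also its transcript), −0.06703 for Bcl2l11, −0.09039 for Bbc3, −0.105 for Bak1 ENSMUST00000025034, −0.1141 and −0.103 for Bbc3 ENSMUST00000002152 and ENSMUST00000136781, and −0.05265 for Bcl2l11 ENSMUST00000110341. Quantile normalization gave −0.01443 for Bax ENSMUST00000033093, 0.04232 for Bcl2 ENSMUST00000112751, and 0.07545 and 0.1846 for Bcl2l1 ENSMUST00000128172 and ENSMUST00000134357. A pseudocount of 1 gave 0.06357 for the latter. With only transcripts of at least 1 TPM in the denominator, the share of Bbc3 ENSMUST00000136781 differed by 0.01278 points. The cause was not tested.

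Leaving out 1 library in turn, log2 fold changes ran from −0.2037 to 0.0131 for Bcl2, −0.02717 to 0.2775 for Bax and its transcript, −0.0527 to 0.2783 for Bad, −0.04089 to 0.1171 for Bcl2l11 and −0.2763 to 0.1945 for Bbc3. For transcripts they ran from −0.007578 to 0.5064 (Bad ENSMUST00000113423), −0.1084 to 0.0565 (Bad ENSMUST00000025910), −0.06031 to 0.07526 (Bak1 ENSMUST00000025034), −0.3288 to 0.1991 (Bbc3 ENSMUST00000002152), −0.2984 to 0.2509 (Bbc3 ENSMUST00000136781) and −0.2146 to 0.01538 (Bcl2 ENSMUST00000112751). For Bcl2l1 they ran from −0.1516 to 0.08186 (ENSMUST00000007803), −0.151 to 0.09594 (ENSMUST00000128172) and −1.012 to 0.763 (ENSMUST00000134357), for Bcl2l11 ENSMUST00000110341 from −0.09757 to 0.1756 and for Mcl1 ENSMUST00000037947 from −0.03109 to 0.2816. Differences in share ran, in points, from −1.106 to 0.04664 for Bak1 ENSMUST00000078691, −2.577 to 0.283 and −3.059 to 2.658 for Bbc3 ENSMUST00000002152 and ENSMUST00000136781, −3.219 to 4.888 for Bcl2l1 ENSMUST00000134357, and −1.659 to 0.7045 and −0.265 to 1.945 for Bcl2l14 ENSMUST00000111960 and ENSMUST00000163589. Of the members' alternative values, 169 of 179 gene values and 351 of 383 transcript values kept their sign and their side of the threshold. For ratios and shares only the sign was compared, and 16 of 16 ratios and 143 of 152 shares kept it. The replicate block, the other variance models and the adjusted p of 0.1 leave the difference itself unchanged. Under those settings no sign could turn, so these tallies overstate how far the values were tried. With 3 mice a group and no depth per library, differences of a size inside the intervals given were not excluded. The intervals are not adjusted for the number of genes tested, so they do not show which differences would pass the threshold.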
